A study of Homo sapiens with 34 samples.

Results

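The data described here are the called chromatin regions of OGG1 in U2OS cells, a human osteosarcoma line, after hydrogen peroxide and without it. They were chosen by the sample titles, as the OGG1 region lists of cells given the control siRNA siGl3 and either 5 mM H2O2 for 30 min or no treatment (NT, non-treated). The 4 lists held 281721 regions on chromosomes 1 to 22 and X, of 978086 regions in the 20 lists of the series, which has 34 samples. All cells had carried the siRNA for 72 h and had been held by a double thymidine block and released for 3 h, into early S phase. Each CUT&RUN reaction used 500000 cells, fixed in 0.1% formaldehyde for 1 min. There were 2 H2O2 and 2 NT libraries, and the labels give the replicate number as the batch, so that each batch holds 1 library of each treatment. The labels do not say that the libraries of a group came from separate cultures, so that p-values measure the spread between these libraries, which may be technical. The lists give no read counts. Depth is therefore unknown, and a longer list and a deeper library cannot be told apart.

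OGG1 is the DNA glycosylase that recognises 8-oxoguanine, the common oxidised form of guanine, and cuts it out as the opening step of base excision repair. Hydrogen peroxide oxidises DNA and puts 8-oxoguanine into it. In CUT&RUN an antibody brings a nuclease to its target, and the DNA released next to the target is sequenced, so that a called region is a stretch of DNA near the protein.

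OGG1 regions lay more often at the starts of genes with many CpG in the promoter, and 4 promoters are printed to show the range. They were picked with their values in view and come from RefSeq on GRCh38.p14, from 250 bases before to 50 bases after the start, 5′ to 3′ on the gene's strand. Capitals mark each CpG. PARP1 (chr1:226408044-226408343, minus strand), which encodes the poly(ADP-ribose) polymerase that detects DNA breaks, has 33 CpG and had a region at its start in all 4 libraries. RFC5 (chr12:118016453-118016752, plus strand), a subunit of the clamp loader of replication, has 23 CpG and had a region in both H2O2 and neither NT library. HPX (chr11:6440938-6441237, minus strand), which encodes the plasma protein haemopexin, has 3 CpG and also had a region in both H2O2 and neither NT library. OR10T2 (chr1:158399417-158399716, minus strand), an olfactory receptor gene, has 3 CpG and had a region in no library.
PARP1: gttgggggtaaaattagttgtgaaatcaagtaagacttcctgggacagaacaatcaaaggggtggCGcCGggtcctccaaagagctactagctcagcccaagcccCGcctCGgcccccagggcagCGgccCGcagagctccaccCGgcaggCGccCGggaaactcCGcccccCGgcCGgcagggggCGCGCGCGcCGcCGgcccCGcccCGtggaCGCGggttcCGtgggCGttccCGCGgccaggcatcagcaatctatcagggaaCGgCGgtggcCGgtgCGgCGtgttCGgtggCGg
RFC5: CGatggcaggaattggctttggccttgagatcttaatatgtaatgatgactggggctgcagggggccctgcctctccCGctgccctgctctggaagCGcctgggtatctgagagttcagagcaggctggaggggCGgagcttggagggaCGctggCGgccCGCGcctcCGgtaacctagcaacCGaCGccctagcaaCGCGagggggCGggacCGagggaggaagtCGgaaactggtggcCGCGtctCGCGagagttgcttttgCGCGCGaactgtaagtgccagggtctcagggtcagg
HPX: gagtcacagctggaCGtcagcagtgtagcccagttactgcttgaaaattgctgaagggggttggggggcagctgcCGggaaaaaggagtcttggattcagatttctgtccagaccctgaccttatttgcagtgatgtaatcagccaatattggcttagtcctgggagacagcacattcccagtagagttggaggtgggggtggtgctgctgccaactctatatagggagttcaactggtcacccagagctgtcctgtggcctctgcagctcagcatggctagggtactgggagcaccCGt
OR10T2: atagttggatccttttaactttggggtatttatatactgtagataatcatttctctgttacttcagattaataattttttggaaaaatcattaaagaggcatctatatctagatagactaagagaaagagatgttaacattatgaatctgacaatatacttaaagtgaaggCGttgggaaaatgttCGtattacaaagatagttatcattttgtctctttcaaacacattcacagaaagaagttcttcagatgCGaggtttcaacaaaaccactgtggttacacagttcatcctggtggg

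OGG1 covered a far larger part of the genome in the H2O2 lists. The H2O2 libraries held 132025 and 110679 regions, against 17813 and 21204 in the NT libraries. The groups did not overlap, and the geometric means stood 6.22-fold apart (log2 2.64). The regions covered 825 and 777 Mb in the H2O2 libraries and 166 and 244 Mb in the NT libraries, a fold of 3.98. As a share of the 3.03 Gb spanned by the lists, that is 27.2% and 25.6% in the H2O2 libraries against 5.47% and 8.06% in the NT libraries. Within batches the region number differed by 2.89 in batch 1 and 2.38 in batch 2 on the log2 scale, and the covered bases by 2.32 and 1.67. With 2 libraries against 2, the exact two-sided permutation test cannot go below p = 0.333, which both measures gave. In bulk samples such as these, more cells with OGG1 at a place and more OGG1 per cell cannot be told apart.

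The lists also differed in how deep they reached. The lowest total signal of a listed region was 6131 and 7327 in the H2O2 libraries, against 29423 and 32321 in the NT libraries, so that the H2O2 lists hold regions of a strength that no NT list holds. The scale of this signal, not given in the sources used here, may differ between lists, and its part in the longer lists was not tested. With regions under 32321 left out of every list, 27809 and 29265 regions were left in the H2O2 libraries and 15885 and 21204 in the NT libraries. They covered 481 and 507 Mb in the H2O2 libraries against 156 and 244 Mb in the NT libraries. The H2O2 lists were thus still the longer ones at one floor, by less than in the full lists. This floor was chosen after seeing the data.

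**Figure D1:**
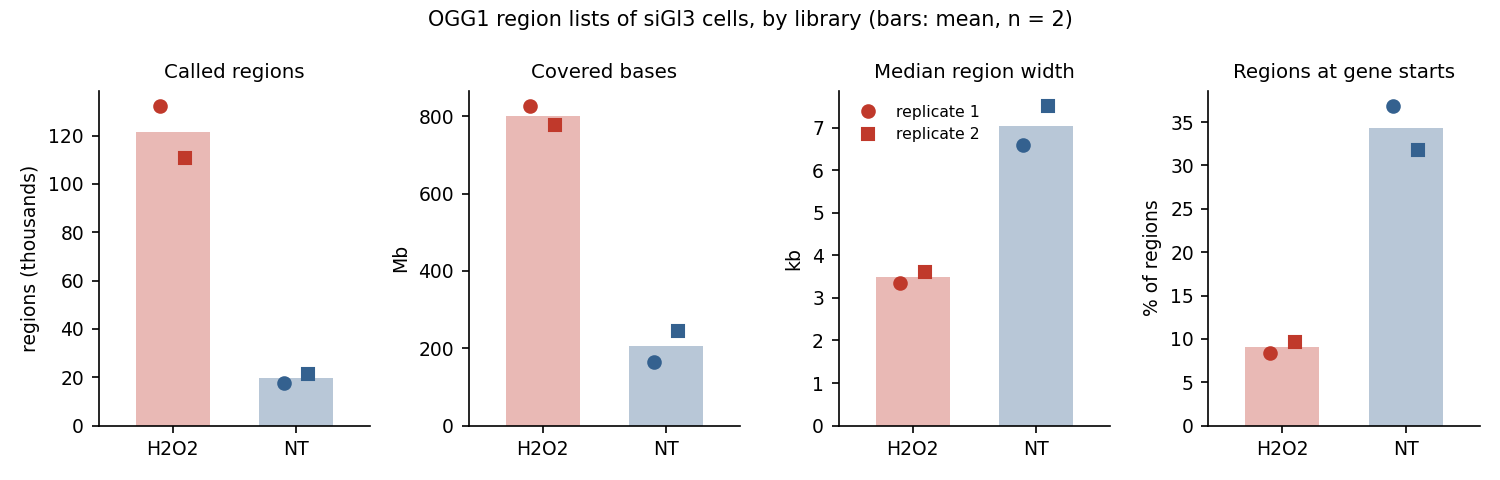
Each panel shows 1 measure of the OGG1 lists of siGl3 cells by library, with H2O2 left of NT; points are the libraries and bars their mean (n = 2). The H2O2 libraries lie above the NT libraries in region number and covered bases (825 and 777 Mb against 166 and 244 Mb), and below them in median width and in the share of regions at gene starts.

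Most H2O2 regions lay where neither NT library had a region. Such new regions, with no base in common with an NT region, numbered 103866 and 88403 in the H2O2 libraries, or 78.7% and 79.9% of each list. They were narrow, with a median width of 2953 and 3142 bp, against 8078 and 10948.5 bp for the H2O2 regions that overlapped an NT region. They were also weak within their list: their total signal had a median percentile of 42.0 and 41.2, against 83.7 and 87.8 for the overlapping regions. New regions held 437 and 379 Mb, and the outward growth of overlapping regions added 146 and 138 Mb beyond the NT regions. Together 70.6% and 66.6% of H2O2 bases lay outside every NT region.

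The new regions were partly shared by the H2O2 replicates. Of those of replicate 1, 65.5% were overlapped by a region of H2O2 replicate 2, and of those of replicate 2, 77.3% by a region of H2O2 replicate 1. The other replicate covered 18.8% and 21.2% of the span outside NT regions. Bases in both H2O2 and no NT library made up 354 Mb, or 11.7% of the span, and bases in all 4 libraries 121 Mb. The opposite pattern, both NT and no H2O2 library, covered 1.37 Mb. A further 229 Mb was in H2O2 replicate 1 alone and 163 Mb in H2O2 replicate 2 alone, and 2007 Mb in no library.

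Whether new regions were crowded around NT regions was not tested, since no background distance was computed. The median distance of new regions to the nearest NT region was 43.6 and 37.4 kb. Of the new regions, 10.4% and 11.1% lay within 5 kb of an NT region, and 29.3% and 25.2% lay over 100 kb away. The widest ones, which overlapped no NT region, were shared to different degrees by the H2O2 replicates. The widest of all, of 70.9 kb at chr14:51670637-51741537, overlapped FRMD6, a gene for a FERM-domain protein of the Hippo pathway, and H2O2 replicate 2 covered 87.4% of it. The next, of 69303 bp on the same chromosome, was covered to 46.6% in the other replicate. One at chr18:2697018-2760798 lay over SMCHD1, a chromatin protein of X inactivation, with 79.9% covered in the other replicate. One at chr5:146347551-146407839 overlapped no protein-coding gene, with 89.0% covered in the other replicate.

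In the full lists, the regions of untreated cells were nearly all still covered after H2O2, and mostly wider. Of NT regions, 99.9% in each NT library were overlapped by a region of either H2O2 library, and 15 and 14 were not. The H2O2 library of the same replicate number alone overlapped 99.3% and 99.8%. H2O2 regions covered 98.2% and 97.7% of NT bases. By comparison, NT replicate 2 overlapped 88.1% of the regions of NT replicate 1, and NT replicate 1 overlapped 66.1% of those of NT replicate 2. These NT lists were far shorter than the H2O2 lists. With 17813 regions in each list, H2O2 regions overlapped 87.7% of NT regions on average, and with 166 Mb in each 53.3%. At an NT region the widest H2O2 region of the same replicate number had a median width of 17966 and 20017 bp, against 6599 and 7496 bp for the NT regions themselves. It was the wider one at 83.0% and 85.0% of NT regions, and with the other H2O2 replicate at 90.9% and 73.8%. Taking the widest of several regions favours the overlapping library, so the same was measured between NT libraries. NT replicate 2 was wider at 72.6% of the regions of NT replicate 1 that it overlapped, and NT replicate 1 at 37.6% of those of NT replicate 2. The median ratio of widths was 2.52 and 2.22 for H2O2 over NT, and 1.41 and 0.852 between the NT libraries. For NT replicate 1 the share thus stands less far above that between untreated libraries than for NT replicate 2. In 2910 and 3819 cases a single H2O2 region joined at least 2 NT regions, and 42.8% and 46.4% of NT regions lay inside such a joined region. Of the few NT regions not found after H2O2, the widest within a gene lay at TUBD1 (chr17:59870128-59880415), which encodes delta-tubulin.

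The median width of all regions was lower in the H2O2 lists even though the shared regions were wider. It was 3349 and 3615 bp in the H2O2 libraries and 6591 and 7494 bp in the NT libraries (exact two-sided permutation p = 0.333). Regions of at least 50 kb were nevertheless more numerous after H2O2, at 1043 and 1348 against 177 and 426 in the NT libraries. The new share depended on width: it was 91.6% and 95.4% of H2O2 regions under 2 kb, and 1.05% and 0.223% of those of 50 kb or more. The direction of the median turned in lists cut to a common signal floor or length, which need not be alike in strength. At one signal floor it was 11999 and 11258 bp in the H2O2 libraries and 7013 and 7494 bp in the NT libraries, and with the 17813 strongest regions of each list the H2O2 mean was 16104.5 bp and the NT mean 7495.5 bp. At the floor the new share was 41.5% in each H2O2 library.

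**Figure D2:**
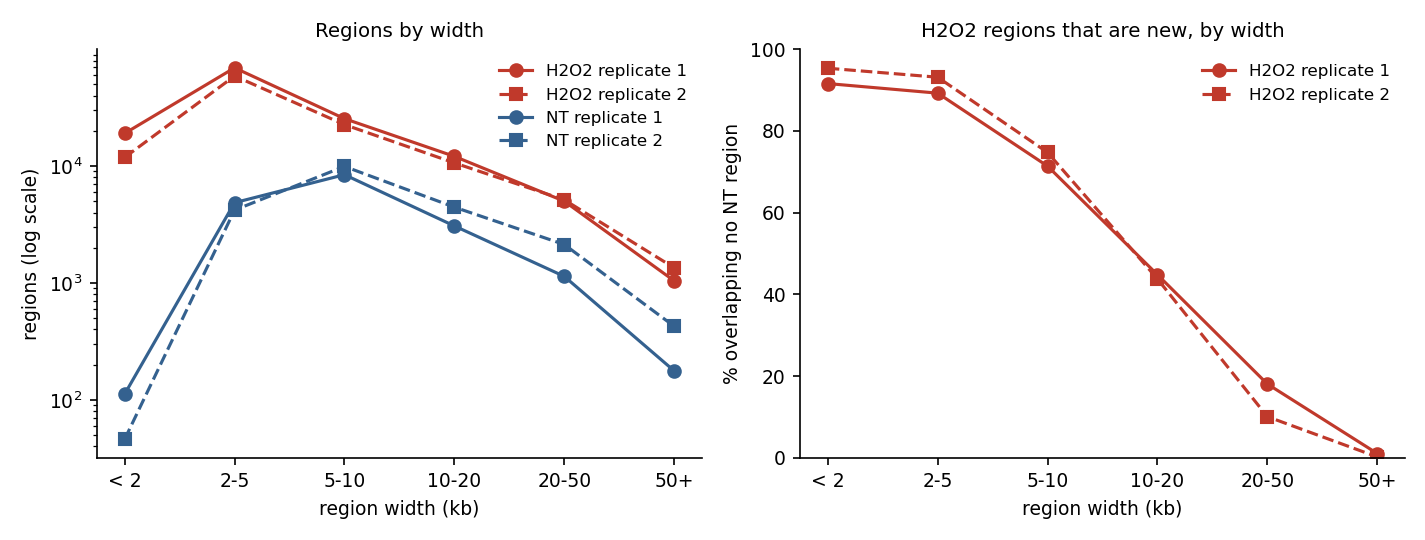
The left panel gives the number of regions (log scale) by region width in kb for the 2 H2O2 and 2 NT libraries, and the right panel the percent of H2O2 regions of each width that overlap no NT region. The H2O2 lists are longer at every width, and the new share drops from 91.6% and 95.4% under 2 kb to 1.05% and 0.223% at 50 kb or more.

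Covered bases were higher in every kind of location, and the ratio to NT coverage was largest where NT coverage was lowest. Coverage cannot exceed 100%, so that the ratio had less room where NT coverage was high. Within 1 kb of the starts of protein-coding genes, H2O2 regions covered 69.5% and 73.1% of bases, against 44.7% and 47.8% in the NT libraries, a ratio of means of 1.54. At gene ends they covered 51.0% and 50.7%, against 17.9% and 24.5% in the NT libraries (2.40). Inside genes the coverage was 36.8% and 34.4% against 7.71% and 11.3% in the NT libraries (3.75), and outside genes 20.5% and 19.4% against 3.88% and 5.79% (4.13). Over 100 kb from any protein-coding gene it was 7.13% and 6.19% in the H2O2 libraries and 0.717% and 1.22% in the NT libraries (6.89). Gene starts were thus the densest location in both states and had the smallest relative difference. In points their difference was larger than that far from genes. The mean was 71.3% after H2O2 against 46.3% in the NT libraries at gene starts. Over 100 kb from any protein-coding gene it was 6.66% against 0.967%.

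As a share of their list, regions at gene starts were fewer after H2O2. They made up 8.33% and 9.70% of the H2O2 lists and 36.8% and 31.8% of the NT lists (exact two-sided permutation p = 0.333, n = 2 each). The direction turned when each list was held to its strongest 166 Mb, with 56.3% of H2O2 and 38.2% of NT regions at a gene start. Among H2O2 regions, 3.24% and 3.88% of the new ones lay at a gene start, against 26.8% and 32.5% of those that overlapped an NT region. New regions lay a median of 55.4 and 52.0 kb from the nearest gene start, and overlapping ones 19.9 and 17.5 kb.

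**Figure D3:**
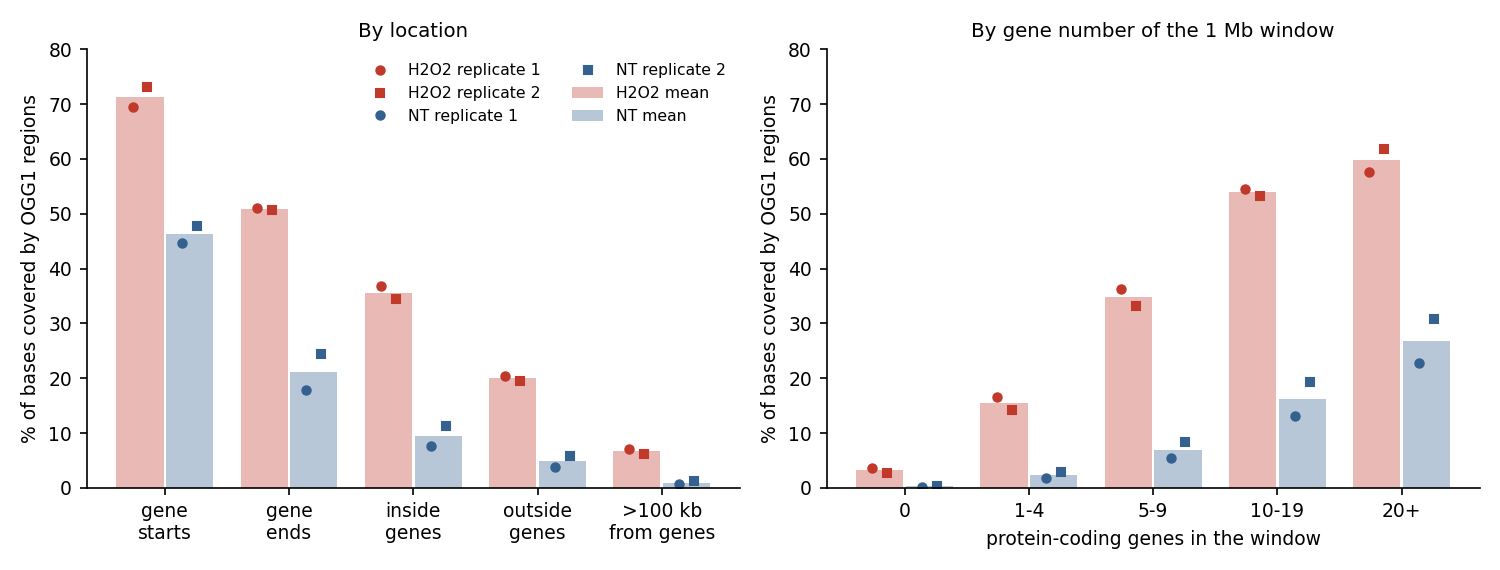
Bars give the mean percent of bases covered by OGG1 regions (points: libraries, n = 2) by location on the left and by the number of protein-coding genes in a 1 Mb window on the right, with H2O2 left of NT. Coverage falls with distance from genes in both states, from 69.5% and 73.1% (H2O2) against 44.7% and 47.8% (NT) at gene starts to 7.13% and 6.19% against 0.717% and 1.22% over 100 kb from a gene.

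At a scale of 1 Mb the spread reached most windows with coverage. In 241 windows none of the 4 libraries had coverage, and these were left out. Windows at 0% in both NT libraries entered only through their H2O2 coverage and could only be higher. Their number was not counted. Of 2787 windows with coverage, 2395 (85.9%) had a higher covered percent after H2O2 and 0 a lower one (limma, adjusted p under 0.05; at an unadjusted p under 0.05, 2420 and 0). With the batch as a block, 2456 were higher and 0 lower. In 2649 windows both H2O2 libraries lay above both NT libraries. The median window was covered to 18.0% after H2O2 and to 1.12% without treatment. The count rested in part on 1 library, since it was 1491 without NT replicate 1. With each library's mean subtracted, 888 windows were higher and 1348 lower. When each list was held to the 166 Mb of the smallest one 0 windows passed. At one signal floor 1178 windows were higher and 4 lower, of 2133 tested. The count thus changed with the setting, and the cause was not tested.

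Windows of 10 to 19 genes gained the most covered percent, and gene-free windows the most relative to NT. The mean difference was 37.8 points in windows of 10 to 19 genes and 32.9 points in those of 20 genes or more. In the 319 windows with 0 genes, coverage was 3.70% and 2.68% in the H2O2 libraries against 0.220% and 0.307% in the NT libraries, a ratio of 12.1, and 52.7% of these windows passed. In the 212 windows with 20 genes or more it was 57.7% and 61.8% against 22.8% and 30.9% in the NT libraries, a ratio of 2.23. The share that passed was highest in windows of 5 to 9 genes, at 96.4%. The largest difference was at chr7:28000001-29000000, with 90.7% and 80.5% after H2O2 against 5.58% and 10.7% in the NT libraries (adjusted p = 0.00120, limma). CREB5, a CREB-family transcription factor gene of 526574 bp, fills much of that window. The smallest difference was in a gene-rich window. At chr11:1000001-2000000, with the gel-forming mucin genes MUC2, MUC5AC, MUC5B and MUC6, coverage was 11.8% and 24.5% after H2O2 against 16.6% and 20.7% in the NT libraries (adjusted p = 0.928, limma).

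The spread was uneven between chromosomes. After H2O2 chromosome 17 was covered most, followed by 22, 20 and 19. Chromosome 17 had 51.0% and 52.0% in the H2O2 libraries against 18.4% and 25.05% in the NT libraries. In the NT libraries chromosome 22 was covered most, at 20.5% and 27.8%. The X chromosome was covered least, at 3.49% and 3.79% against 0.466% and 0.691% in the NT libraries. The ratio of the means ran from 2.01 on chromosome 22 to 8.83 on chromosome 4.

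Of 15813 protein-coding genes with a known start, 78.0% and 79.7% had a region there in the H2O2 libraries, against 48.1% and 51.3% in the NT libraries. A region in both H2O2 and no NT library was found at 3207 starts (20.3%), and the reverse at 6 starts (0.0379%). At 6795 starts all 4 libraries had a region and at 2704 none had. The 6 were those of NLRP6, NEURL4, RASD1, SPO11, LIME1 and ABHD16B. The count depended on list length: with 17813 regions in each list it was 502, with 602 the other way round, and with 166 Mb in each it was 81, with 1396 the other way round.

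These classes differed in promoter sequence. The median number of CpG in the 300 bases was 27 at starts with a region in all 4 libraries, 19 at the 3207 gained starts and 7 at starts with none, against 22 over all promoters. Median GC content was 67.0%, 59.3% and 51.7% in the same order, against 62.7% over all. RFC5 and HPX, printed above, show how far gained promoters range. By CpG class, promoters with 0 to 2 CpG had a region in 44.8% and 41.8% of cases after H2O2, against 10.4% and 13.2% in the NT libraries. Those with 20 or more had one in 88.4% and 90.5% of cases after H2O2, against 62.4% and 64.7% in the NT libraries. A start with an NT region cannot be gained. Among starts with a region in neither NT library, 25.7% of those with 0 to 2 CpG were gained. Of those with 20 or more CpG, 59.7% were. The antioxidant response element TGACNNNGC, the site of NRF2, was found on either strand in 13.3% of gained promoters and 14.4% of all. The AP-1 site TGANTCA was found in 6.58% of gained promoters and 5.70% of all. A run of 4 guanines, GGGG, on either strand was found in 92.9% of gained promoters and 93.7% of all. These shares are descriptions, and how far the motif counts depend on base composition was not tested.

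Gene by gene, the covered percent of the gene with 1 kb on each side was compared by limma. This took in 17471 of 19821 protein-coding genes, those with coverage in any of these libraries. It was higher after H2O2 in 7294 genes (41.7%) and lower in 37 (0.212%), at an adjusted p under 0.05. The median difference was 32.2 points. These counts depend on the setting. With no filter on coverage 115 of all 19821 genes were higher and 0 lower, and with each list held to 166 Mb the direction turned, with 230 higher and 764 lower of 11611. With the batch as a block 0 genes passed in either direction (limma, 8549 higher and 38 lower at an unadjusted p under 0.05), without NT replicate 1 the counts were 624 and 6, and without NT replicate 2 they were 2393 and 9. With each library's mean subtracted 2471 were higher and 4387 lower. Of the tested genes, 4936 stood at 0% in both NT libraries and so entered only through their H2O2 coverage. Where such a gene is named, its values are given with no test. The counts of higher genes, here and in the lists below, still include them, and 2298 (46.6%) of the 4936 were higher. Those counts thus rest in part on genes that could only be higher. Among the 12535 with coverage in an NT library 4996 (39.9%) were higher, and all 37 lower genes were among these. All gene calls that follow are from the fit without the block.

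Gene length mattered to the size of the difference. The median difference was 18.7 points for genes under 5 kb, 40.3 points for genes of 50 to 100 kb and 7.84 points for genes of 300 kb or more. Of tested genes under 5 kb, 18.0% were higher after H2O2, and of those of 50 to 100 kb, 56.0%. Genes under 5 kb also made up 24 of the 37 lower ones.

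Among base excision repair genes, 12 of 24 tested were higher (50.0%, against 41.7% of all genes tested) and 0 lower, with a median difference of 39.0 points against 32.2 over all genes tested. PARP1 (chr1:226360691-226408093) was covered to 95.5% and 94.8% in the H2O2 libraries, against 5.82% and 22.1% in the NT libraries (difference 81.2 ± 7.58 points, SE; adjusted p = 0.0146, limma). Its H2O2 values lie far above both NT values. APTX, which encodes aprataxin and removes AMP left at failed ligations, had 86.9% and 85.1% after H2O2 against 19.9% and 12.1% in the NT libraries. MBD4, a glycosylase gene for mismatched thymine and uracil, had 100% and 77.6% against 22.3% and 22.6%. For PARP2, the second polymerase of break signalling, the values were 85.4% and 82.1% after H2O2 against 25.4% and 0% in the NT libraries. These genes were picked for the largest differences of the list among those that passed, so that their separation is no further result. The OGG1 gene itself was covered to 84.4% and 100% after H2O2 and to 58.3% and 45.1% in the NT libraries, which did not pass (adjusted p = 0.0601, limma). Gained starts in the list were those of TDG, HMGB1, NEIL3 and APEX2, the glycosylases TDG and NEIL3 among them, of 22 with a known start (18.2%, against 20.3% of all starts).

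Mismatch and nucleotide excision repair genes had 14 of 20 higher (70.0%, against 41.7% of all genes tested) and 0 lower. The median difference was 62.1 points, against 32.2 over all genes tested. Their median length is 37937.5 bp, and of all tested genes of 20 to 50 kb 49.1% were higher. MLH3, a mismatch repair factor, was covered to 98.9% and 86.2% after H2O2 against 4.02% and 6.05% in the NT libraries (difference 87.5 ± 6.16 points, SE; adjusted p = 0.0117, limma). MSH6, which encodes a mismatch-binding protein, had 90.01% and 93.5% against 12.3% and 26.3% in the NT libraries. ERCC4, the XPF subunit of the nuclease that cuts beside bulky lesions, had 98.2% and 70.0% against 7.66% and 7.64%. These genes, too, were picked for large differences, so that H2O2 values above the NT values are no further result. ERCC4 was the most uneven of them between the H2O2 replicates. EXO1, ERCC5 and ERCC8 were the gained starts, of 18 (16.7%, against 20.3% of all).

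Break repair and checkpoint genes had 17 of 24 higher (70.8%, against 41.7% of all genes tested) and 0 lower, with a median difference of 50.0 points against 32.2 over all. Their median length is 57074 bp, and of all genes of 50 to 100 kb 56.0% were higher. BRCA1 (chr17:43044295-43170327), a central factor of homologous recombination, was covered to 89.1% and 86.0% after H2O2 against 1.78% and 8.75% in the NT libraries (difference 82.3 ± 4.23 points, SE; adjusted p = 0.0110, limma). RNF8, the ubiquitin ligase that marks broken chromatin, had 100% and 91.4% against 6.49% and 9.63% in the NT libraries. NHEJ1, an end-joining factor also called XLF, had 87.7% and 89.6% against 2.09% and 7.02%. CHEK2, a checkpoint kinase gene, had 87.0% and 91.7% against 7.10% and 9.93%. In all 4 genes the NT coverage was confined to a small part of the gene, which includes the start, since all 4 starts had a region in every library. Gained starts numbered 6 of 23 (26.1%, against 20.3% of all).

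Replication factors had 18 of 31 higher (58.1%, against 41.7% of all genes tested) and 1 lower. The median difference was 51.1 points, against 32.2 over all. Their median length is 36746.5 bp, and of all tested genes of 20 to 50 kb 49.1% were higher. RFC5, whose promoter is printed above, was covered to 97.9% and 95.4% after H2O2 and to 0% in both NT libraries. MCM3, of the replicative helicase, had 100% in both H2O2 libraries against 16.7% and 0% in the NT libraries. RFC1, the large clamp loader subunit, had 92.3% and 78.9% against 2.70% and 0%. RPA2, of the single-strand binding protein RPA, had 94.9% and 72.0% against 12.3% and 0%. CDT1, which loads the helicase at origins, was the lower one, with 80.1% and 76.7% after H2O2 against 100% in both NT libraries (difference -21.6 ± 3.22 points, SE; adjusted p = 0.0262, limma). Its start had a region in all 4 libraries. Gained starts numbered 6 of 29, a share of 20.7% against 20.3% of all starts, among them those of ORC1, ORC3, ORC4 and ORC5, subunits of the origin recognition complex.

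Genes of ISWI and other remodellers, which move nucleosomes, had 17 of 22 higher (77.3%, against 41.7% of all genes tested) and 0 lower, with a median difference of 52.3 points against 32.2 over all. Their median length is 79436.5 bp, in the same class of length, where 56.0% of all genes were higher. POLE3, which encodes a histone-fold subunit shared by polymerase epsilon and the ISWI complex CHRAC, was covered to 100% in both H2O2 libraries and to 0% in both NT libraries. BPTF, the large subunit of the ISWI complex NURF, had 96.7% and 87.9% against 13.1% and 1.23% in the NT libraries. ARID1A, of the SWI/SNF complex BAF, had 86.1% and 94.2% against 12.7% and 14.9%. BAZ1B, the partner of SMARCA5 in the WICH complex, had 80.3% and 84.1% against 7.61% and 5.55%. Gained starts were those of CECR2, HMGXB4, SMARCA5, ARID1B and POLE3, of 21 (23.8%, against 20.3% of all), with SMARCA5 the gene of an ISWI ATPase.

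Both lists of oxidative stress genes had a smaller share of calls than all genes tested, with no allowance for length or NT coverage. Of NRF2 antioxidant targets 10 of 29 were higher (34.5%, against 41.7% of all genes tested) and 0 lower, with a median difference of 22.3 points against 32.2 over all. BACH1, the repressor at NRF2 sites, was covered to 100% and 88.0% after H2O2 against 5.24% and 8.39% in the NT libraries. NFE2L2, the gene of NRF2 itself, had 96.9% and 93.4% against 26.5% and 7.06%. GCLC, the catalytic subunit of glutathione synthesis, had 98.7% and 82.7% against 5.43% and 18.1%. These calls stand beside 19 tested members that did not pass. Of these, FTL, MAFG, MAFK and HMOX1 stood at 100% in each H2O2 and NT library, where no rise is possible. The list's median length is 20658.5 bp. Of all tested genes of 5 to 20 kb 30.8% were higher, and of those of 20 to 50 kb 49.1%. The gained starts were those of ME1 and PIR, of 23 (8.70%, against 20.3% of all).

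Of peroxide and superoxide enzymes 7 of 21 were higher (33.3%, against 41.7% of all genes tested) and 1 lower, with a median difference of 38.3 points against 32.2 over all. Their median length is 9444.5 bp, and of all tested genes of 5 to 20 kb 30.8% were higher. GPX1 and PRDX5 stood at 100% in each H2O2 and NT library, where no rise is possible. GPX7, a glutathione peroxidase gene of the secretory pathway, was covered to 92.6% and 76.7% after H2O2 and to 0% in both NT libraries. CAT, the gene of catalase, which splits hydrogen peroxide, had 77.5% and 71.7% against 4.07% and 8.72% in the NT libraries. SOD2, the mitochondrial superoxide dismutase, had 57.7% and 58.4% against 6.74% and 9.27%. GPX4, the peroxidase of lipid hydroperoxides, was the lower one, with 73.2% and 74.2% after H2O2 against 100% and 98.0% in the NT libraries (difference -25.3 ± 3.26 points, SE; adjusted p = 0.0210, limma). GPX7 and PRDX4 were the gained starts, of 17 (11.8%, against 20.3% of all).

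AP-1 and immediate early genes were already covered without treatment. Over their 24 members the median was 94.7% after H2O2 and 78.7% in the NT libraries, against 60.6% and 5.94% over all genes. Regions lay at 16 of 19 known starts in all 4 libraries, and 0 starts were gained, against 20.3% of all starts. FOS and JUN, the genes of the AP-1 pair, were both covered to 100% in each H2O2 library, against 100% and 79.8% in the NT libraries for FOS and 100% and 84.2% for JUN. Of 23 tested, 4 were higher (17.4%, against 41.7% of all genes tested) and 0 lower. The count includes KLF6, which stood at 0% in both NT libraries and could only be higher, with 24.4% and 20.6% after H2O2. The others were ATF3, CCN1 and NR4A3. ATF3, a stress-induced transcription factor gene, had 88.8% and 74.5% after H2O2 against 11.2% and 19.3% in the NT libraries.

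**Figure D4:**
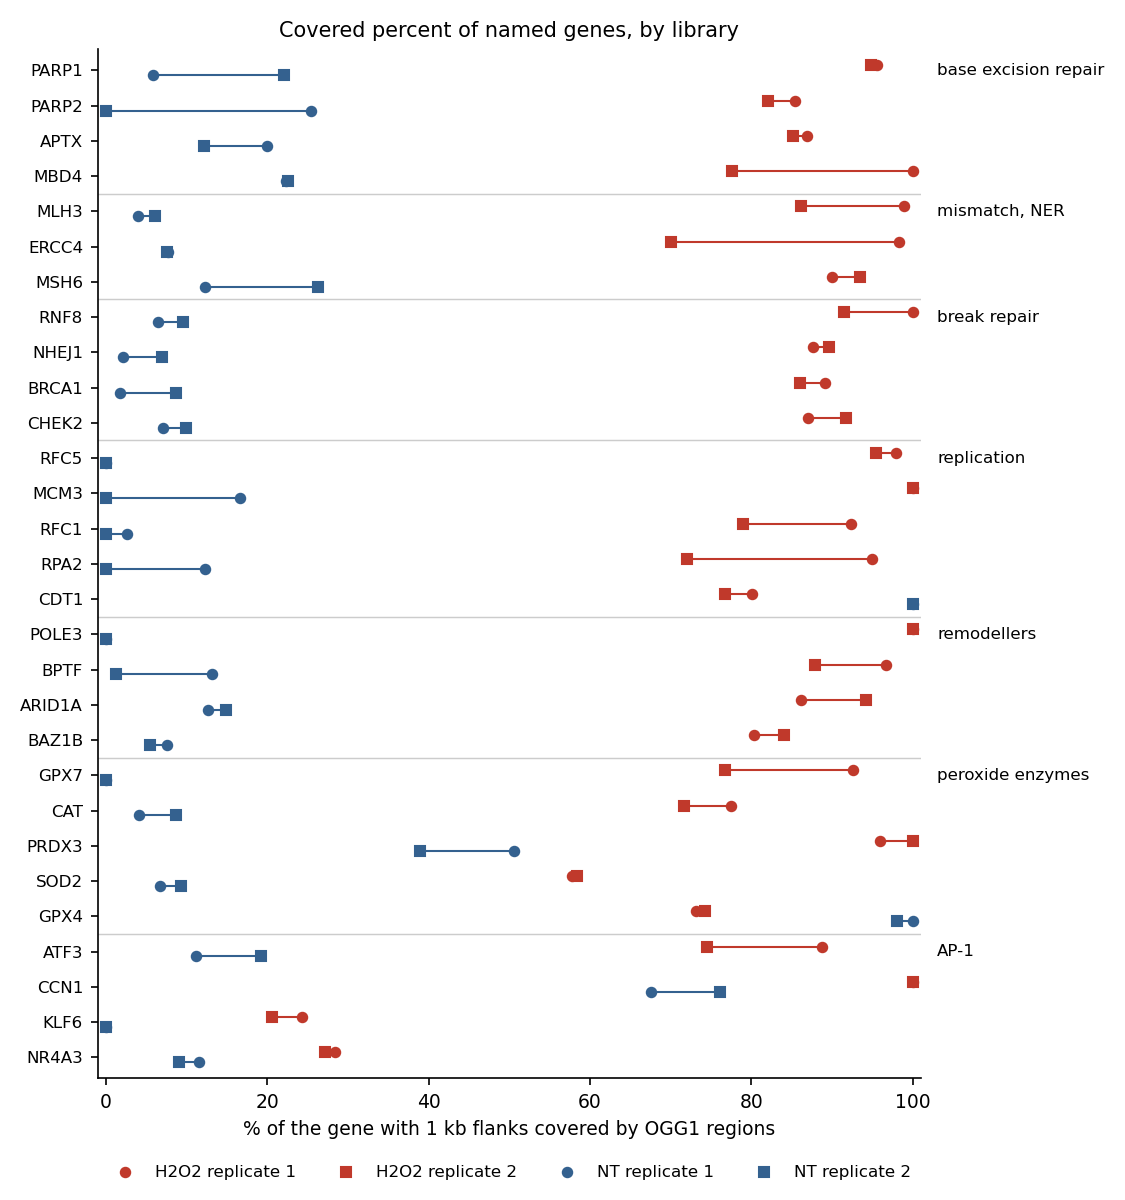
Percent of each gene, with 1 kb on each side, covered by OGG1 regions in each library, for named genes of 7 lists (H2O2 red and above, NT blue and below; circles replicate 1, squares replicate 2). The genes were picked for large differences among those that passed. In all but GPX4 and CDT1 both H2O2 libraries lie to the right of both NT libraries, as for BRCA1 with 89.1% and 86.0% against 1.78% and 8.75%.

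The other response lists and the lists of cell identity had shares near or below the 41.7% of all genes tested, with 0 lower in each, and are given as descriptions. Of p53 targets 8 of 24 were higher (33.3%), with POLH, the lesion-bypass polymerase gene, at 88.9% and 92.8% after H2O2 against 10.8% and 11.5% in the NT libraries. Of NF-kB inflammatory targets 4 of 17 were higher (23.5%): IL1B, TNFAIP3, NFKB1 and CCL20. CCL20 had 85.0% and 62.7% after H2O2 and 0% in both NT libraries, so that it could only be higher. Of mesenchymal and bone genes, the identity of this line, 9 of 28 were higher (32.1%). VIM, the gene of vimentin, had 84.3% and 75.9% after H2O2 against 33.3% and 36.8% in the NT libraries, and regions lay at 10 of 16 known starts in all 4 libraries. Genes that mark other cell types were among the calls too. Of hepatocyte genes 8 of 18 tested were higher, and of lymphoid and myeloid genes also 8 of 18 (44.4% in both). Of neuron genes 4 of 17 were higher (23.5%), namely GRIN2B, GAD1, SNAP25 and SYN1. HPX, printed above, had 78.3% and 77.3% after H2O2 and 0% in both NT libraries.

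Long genes and clustered families differed in kind. In 32 long genes with fragile sites, the members' median was covered to 1.93% after H2O2 and to 0% in the NT libraries, and 7 of 30 tested were higher (23.3%, against 41.7% of all genes tested). RBFOX1, an RNA splicing factor gene of 2473620 bp, had 22.02% and 21.2% against 1.26% and 2.65% in the NT libraries. Starts were gained in 11 of 25 (44.0%, against 20.3% of all), FHIT among them, where 2.25% and 1.09% of the gene was covered after H2O2 and 0% in both NT libraries. Replication-dependent histone genes had 26 of 53 tested genes higher (49.1%, against 41.7% of all) and 27 of 64 starts gained (42.2%, against 20.3% of all). H1-1, H1-2, H2AC6 and H3C1 were each covered to 100% in both H2O2 libraries and to 0% in both NT libraries. These genes are short and lie together on chromosome 6, so that neighbours share regions, and reads of near-identical copies may have been split between them.

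The 37 lower genes were mostly small genes that untreated cells had covered whole. ABHD16B (chr20:63861498-63862988), which encodes an abhydrolase-domain protein, had 31.1% and 10.3% after H2O2 against 100% in both NT libraries (difference -79.3 ± 9.44 points, SE; adjusted p = 0.0199, limma). PTGDS, the prostaglandin D2 synthase gene, had 50.1% and 40.3% against 100% in both NT libraries. KLHL17 and PLEKHN1, neighbours on chromosome 1, had 59.6% and 46.2% against 100% in both NT libraries, and 21.6% and 49.1% against 100% and 99.3%. These genes were picked for the largest falls, so that H2O2 values under the NT values are no further result. In siOrc6 cells the replicates differed: KLHL17 had 25.1% and 100% after H2O2 against 100% and 0% in the NT libraries.

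At the other end, genes of 20 kb or more at 0% in both NT libraries were ranked by difference. The 10 largest among those that passed were picked. MUC13, a membrane mucin gene, was covered to 100% and 97.9% after H2O2. SLC16A4, of the monocarboxylate carrier family, had 100% and 96.6%. HIF1AN, the asparagine hydroxylase that inhibits HIF-1, had 93.9% and 98.4%. Of the rest, RFC5, EFCAB3, PROX2, ABCG5 and LBP had 87.7% to 97.9% in each H2O2 library. Each is a gene filled nearly whole where no NT region had been called.

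The H2O2 gain was looked for in libraries with no part in choosing it. OGG1 libraries of cells with an siRNA against Orc6 (siOrc6), a subunit of the origin recognition complex, held 132408 and 73301 regions after H2O2 and 18759 and 33435 in NT cells. The log2 change within a batch was larger in siGl3 than in siOrc6 cells by 0.66 for region number (exact two-sided permutation p = 0.667, 2 pairs each, where 0.333 is the smallest p), a difference that did not pass. The 354 Mb gained in siGl3 cells were covered to 68.8% and 56.2% in the siOrc6 H2O2 libraries, which covered 24.6% and 18.4% of the span. In the siOrc6 NT libraries 7.57% and 28.3% of them were covered, against 7.02% and 9.497% of the span. Replicate 2 of that group thus held far more of the gained bases than replicate 1. Of the 3207 gained starts, 85.4% and 84.8% had a region in the siOrc6 H2O2 libraries and 21.4% and 30.2% in the siOrc6 NT libraries. The full pattern was found again at 1188 of them (37.0%), against 11.1% of all starts, and at 1811 (56.5%) without siOrc6 NT replicate 2, against 17.2% of all. Of the 2395 higher windows, 1831 (76.5%) had both siOrc6 H2O2 libraries above both siOrc6 NT libraries. So did 128 (32.7%) of the other windows tested, so that the pattern was not confined to the higher windows. In siOrc6 cells alone 0 windows and 0 genes passed (limma; 786 windows and 3677 genes were higher at an unadjusted p under 0.05).

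The gained bases were also more covered than the span by the other antibodies. Orc6 libraries of siGl3 cells covered 32.8% and 39.6% of them after H2O2, where they covered 11.2% and 13.2% of the span. In NT cells they covered 12.4% and 27.1% of them and 4.71% and 9.56% of the span. SMARCA1 libraries, of an ISWI ATPase, covered 9.12% and 6.81% after H2O2 and 2.87% and 2.92% in NT cells. Relative to each library's share of the span, the coverage of gained bases was 2.03 to 3.00 times in these 8 libraries, 2.79 and 3.05 times in the OGG1 siOrc6 H2O2 libraries, and 1.08 and 2.98 times in the OGG1 siOrc6 NT libraries. The excess was thus also measured with the other antibodies and in NT cells.

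**Figure D5:**
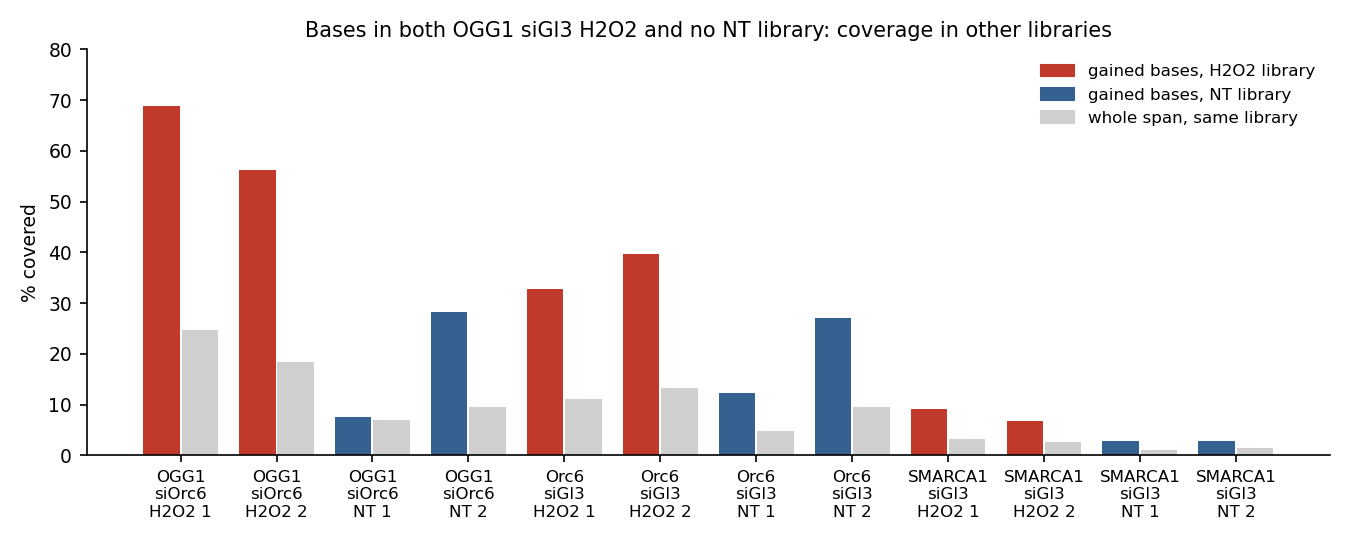
Coloured bars give the percent of the 354 Mb gained by OGG1 in siGl3 cells that each other library covers (red H2O2, blue NT), and grey bars the percent of the whole span that the same library covers. The OGG1 siOrc6 H2O2 libraries cover 68.8% and 56.2% of the gained bases, and in all 12 libraries the coloured bar is the taller, by 1.08 times in OGG1 siOrc6 NT replicate 1.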

How the data were processed

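CUT&RUN regions were taken from lists called per library. Tools named in the submitters' processing notes, with no role, are DESeq2, DiffBind, SEACR 1.1, Bowtie2, bedtools, SAMtools and deepTools, and the build is hg38. Reads were paired and of 150 bp, per the labels' protocols. The deposited lists give each region's total and maximum signal in whole numbers. With scaling and control not given in the sources used here, the signal served only to rank or filter regions, and no test of counts was made.

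Groups came from the sample titles. Overlap means at least 1 bp. Gene positions and promoters came from RefSeq tables of GRCh38.p14. In the table of positions, 153 genes of unplaced or alternate contigs carry a chromosome's name and were left out. Starts were known for 15813 of 19821 genes through the promoter table. Regions and genes of chromosome 8 were counted but are not named, and had no start. Library measures were compared by exact two-sided permutation, and covered percents of genes and of 1 Mb windows by limma 3.58.1 (R 4.3.3; trend, robust) with Benjamini-Hochberg adjustment over all features tested. Tables and figures were made in Python 3.11.15 with pandas 2.3.3, numpy 2.4.6, matplotlib 3.10.9 and scipy 1.17.1.

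Replicate numbers are the batches of the labels and so pair the libraries. Deviations of same-numbered libraries from their group means correlated at r = 0.114 across genes and 0.320 across windows. Tested on simulated data, limma recovered 0% of 200 changed genes among 17471, and 60.4% (30 points) and 84.9% (60 points) when 6988 genes changed. For windows it recovered 79.0% and 96.5% of 200 among 2787.

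Named genes follow a rule: up to 4 members of each of 25 lists with the largest difference among those that passed and up to 2 with the largest fall, 10 further genes of 20 kb or more at 0% in both NT libraries, and 5 with the largest fall, without LOC symbols. Of regions it takes the 5 widest new, the 5 widest lost and the 5 strongest of each library, and of windows the 5 of largest and of smallest difference. Some of them are not reported here, and others are named where they complete a count or a sequence is shown, chosen after their values were seen. The members and lists were chosen with earlier results of these data known. Alternatives changed overlap, joining, signal, list length, bases, windows, scale, batch block and libraries.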

Additional observations from a re-analysis of the deposited data

Results flagged for a closer look

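Regions on unplaced and alternate contigs, which the comparisons leave out, were more numerous in the H2O2 lists. H2O2 replicate 1 held 358 and H2O2 replicate 2 held 318, above the 64 and 16 of the NT libraries. As a share of each list they made up 0.270% and 0.286% in the H2O2 libraries and 0.358% and 0.0754% in the NT libraries, so that the shares overlap. Groups of 2 libraries are too small for a check of single outlying libraries.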

How the results depend on the processing

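The direction of region number and covered bases was the same under all alternatives run for them. With the replicate block their values did not change, and the smallest exact p was 0.5. The difference in median width turned to 8609 bp at equal list length, 35330 bp at equal covered bases and 4375 bp at one signal floor, and that of the share at gene starts to 18.1 points at equal covered bases. The mean share of new H2O2 regions was 85.4% where a region counted as new unless most of its length was shared, 83.9% against the same replicate number, 70.7% beyond 5 kb, 78.1% in the stronger part of each list, 30.9% at equal list length, 5.24% at equal covered bases and 42.4% at one floor with NT regions limited alike, and 78.7% to 86.2% with a library left out. NT regions still covered were 99.4% by length, 99.6% against the same number, 87.7% at equal list length and 53.3% at equal covered bases, and 99.1% to 99.9% with a library left out. Gained starts numbered 502 at equal list length (602 the other way round), 81 at equal covered bases (1396) and 866 at one floor (193). Higher genes numbered 115 with no filter, 2471 after centring (4387 lower), 230 at equal covered bases (764 lower), 1040 at one floor, 0 with the replicate block and 624 to 7862 with a library left out. Higher windows numbered 13521 of 21494 at 100 kb, 888 after centring (1348 lower), 0 at equal covered bases, 1178 at one floor, 2456 with the replicate block and 1491 to 2301 with a library left out. The cause of these moves was not tested, apart from fewer regions under the limits on length, bases and signal. The signal floor and the use of either gene end were chosen after seeing the data.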

Other observations

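Genes that most cells use, and large gene families, are described beside the share of all genes. Of cytosolic ribosomal protein genes 32 of 83 tested were higher (38.6%, against 41.7% of all genes tested) and 0 lower. RPL22L1, a paralogue of the ribosomal protein gene RPL22, was covered to 100% and 93.1% after H2O2 and to 0% in both NT libraries. Of mitochondrial ribosomal protein genes 23 of 74 were higher (31.1%), with MRPL9 at 100% in both H2O2 libraries and 0% in both NT libraries. Of proteasome subunit genes 19 of 35 were higher (54.3%), and PSMB5, which encodes a catalytic subunit, had 87.9% and 81.8% after H2O2 against 0% in both NT libraries. Genes with ZNF symbols had 192 of 414 tested higher (46.4%), and 151 of 430 starts gained (35.1%, against 20.3% of all starts).

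HOX genes, the body-axis regulators, were covered to a median of 99.1% after H2O2 and 74.9% in the NT libraries, and 6 of 38 were higher (15.8%). Olfactory receptor genes, silent outside the nose, had 72 of 389 members with enough coverage to test, and 268 of 314 starts had a region in no library. Of the 72 tested, 21 were higher (29.2%, against 41.7% of all genes tested), and 19 starts were gained (6.05%, against 20.3% of all starts). OR4D2 and OR6S1 were covered to 100% in both H2O2 libraries and to 0% in both NT libraries. Of clustered protocadherins 5 of 43 were higher (11.6%): PCDHA1, PCDHA2, PCDHA3, PCDHA4 and PCDHAC2, which overlap in their span. PCDHAC2 stood at 0% in both NT libraries and could only be higher, with 12.1% and 17.2% after H2O2.

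The single strongest region of each library lay on chromosome 7. The region of highest total signal was at chr7:5389205-5819905 in H2O2 replicate 1 and at chr7:5389343-5917125 in H2O2 replicate 2, over ACTB, the beta-actin gene, and FSCN1, an actin-bundling protein gene. In NT replicate 2 it was at chr7:5209882-5642121, over the same genes, and in NT replicate 1 at chr7:1337439-1615587, over MAFK, a small MAF transcription factor gene. All 4 libraries covered at least 91.7% of each of these intervals.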
